A study of Tupaia belangeri with 15 samples.

Results

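The retinal ganglion cells (RGCs) described here were RGC nuclei of the tree shrew (TS, Tupaia belangeri) retina. In these nuclei none of 5 chosen subtype markers, FOXP2, SLIT2, RUNX1, SPP1 and CALCRL, reached a set count. They were 1896 of the 119765 nuclei that passed quality limits (1.58%), and 61.8% of the 3066 nuclei that passed an RGC gate. A nucleus passed with more than 200 and fewer than 6000 detected genes and less than 5% of its counts from mitochondrial genes. It entered the RGC gate with at least 1 unique molecular identifier (UMI, 1 counted RNA molecule) of both RBPMS and SLC17A6, at least 1 UMI among NEFL, NEFM, POU4F1, POU4F2, POU4F3 and THY1, and none of the cone gene ARR3 or the horizontal cell gene ONECUT2. Gated nuclei with fewer than 3 UMIs of FOXP2, SLIT2 and RUNX1 and fewer than 2 of SPP1 and CALCRL were kept, and the other 1170 are called RGCs with a named marker. The nuclei were thus chosen by the measured counts of these 15 genes, whose levels below are a description and were not tested.

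The study profiled single nuclei of 15 TS retinas by droplet RNA sequencing, 5 at each of 3 postnatal stages. Ages ran from 1.4 to 2.1 months in the infant group, from 24.96 to 36 in the mature group and from 85.8 to 86.56 in the senile group. The senile animals came from another institute than the infant and mature ones, so the senile stage and its source cannot be told apart. The labels name no treatment, allele, sex or strain.

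RGCs are the output neurons of the retina. They receive glutamate from bipolar cells and inhibition from amacrine cells, and their axons form the optic nerve. They are divided into subtypes that differ in dendritic stratification, light response and central target, and each subtype is marked by a combination of transcription factors and adhesion molecules. Their loss is the defining damage of glaucoma.

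The 15 libraries held 13429873 to 58734300 UMIs, and they fell into 2 processing batches according to the processing version in the labels. The 7 retinas of batch A (infancy 1 to 3, mature 1 and 2, senile 1 and 2) gave 1690 of the 1896 nuclei, and the 8 retinas of batch B gave 206. The median RGC nucleus without a named marker had between 2978.5 UMIs in senile 2 and 16909 in mature 5. Of 118622 distinct barcodes, 1793 (1.51%) occurred in more than 1 library and none in all of them. A simulated-doublet score marked 142 of the 1896 nuclei (7.49%), which were kept. Lens transcripts were abundant in infancy 4, infancy 5 and mature 4, as given below for CRYBB2. Mature 4 and mature 5 held 9 and 5 of these nuclei, under the minimum of 10 for comparing genes, so gene comparisons rested on 13 retinas with 3 in the mature stage.

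The gate found THY1, a cell surface glycoprotein of RGCs, in 1572 of the nuclei (82.9%), the neurofilament gene NEFM in 884 (46.6%), the RGC transcription factor gene POU4F1 in 398 (21%) and POU4F3 in 11. NEFL and POU4F2 had no counts in any library, so they chose no nucleus. Many nuclei stood near the limits. RBPMS was present at a single UMI in 671 nuclei (35.4%), SLC17A6 in 392 (20.7%), and 499 (26.3%) had a single UMI over the 6 alternative genes. Just inside the upper limits, 56 nuclei had 2 UMIs of FOXP2, 110 had 2 of SLIT2, 53 had 2 of RUNX1, 219 had 1 of SPP1 and 122 had 1 of CALCRL. Exactly at those limits, 43, 119, 51, 115 and 35 gated nuclei were left out for the same genes in that order.

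Markers that the rule had not used were at RGC levels in these nuclei. For reference, amacrine-gated nuclei held at least 3 UMIs of GAD1 or SLC6A9, and cone-gated nuclei at least 3 of ARR3, both with none of RBPMS. EBF1, a transcription factor gene, averaged 1749 ± 281 CPM (the counts-per-million scale, relative to all UMIs of the same nuclei, SD over 13 retinas) and 1710 ± 181 in RGCs with a named marker, against 570 ± 127 in amacrine-gated and 67.9 ± 40.1 in cone-gated nuclei of 15 retinas. NRN1, which encodes the neuritin growth factor of projection neurons, averaged 245 ± 115 CPM against 212 ± 94.1, 7.84 ± 6.63 and 10.7 ± 7.23 in the same order. ELAVL4, a neuronal RNA-binding protein gene, averaged 287 ± 55.2 CPM against 270 ± 56.3, 24.9 ± 7.97 and 11.7 ± 5.16. These 3 genes were lower in both other types than in either RGC group, and NRN1 was higher without a named marker in 11 of 12 retinas, with a ratio of 1.19. STMN2, a regulator of axonal microtubules, averaged 402 ± 79.3 CPM against 456 in RGCs with a named marker, and was lower without one in 11 of 12 retinas. Levels above those of cone-gated nuclei were also found for the sodium channel gene SCN2A at 378 ± 43.7, for the nicotinic receptor subunit gene CHRNB3 at 254 ± 62.9 and for the neuronal tubulin gene TUBB3 at 64.1 ± 17.9. The means of these 4 genes in cone-gated nuclei were 26.0, 20.4, 15.3 and 12.1 CPM. The contrast with amacrine-gated nuclei was smaller for 2 of them. Amacrine-gated nuclei reached 146 CPM of SCN2A in mature 5 and 126 of CHRNB3 in senile 2. In the RGC nuclei of infancy 4, CHRNB3 was at 124 CPM. RBPMS2, the paralogue of RBPMS, averaged 39.7 ± 7.58 CPM against 2.40 ± 1.84 in cone-gated nuclei. Because the gate selects RGCs, these differences carry no test.

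**Figure D1:**
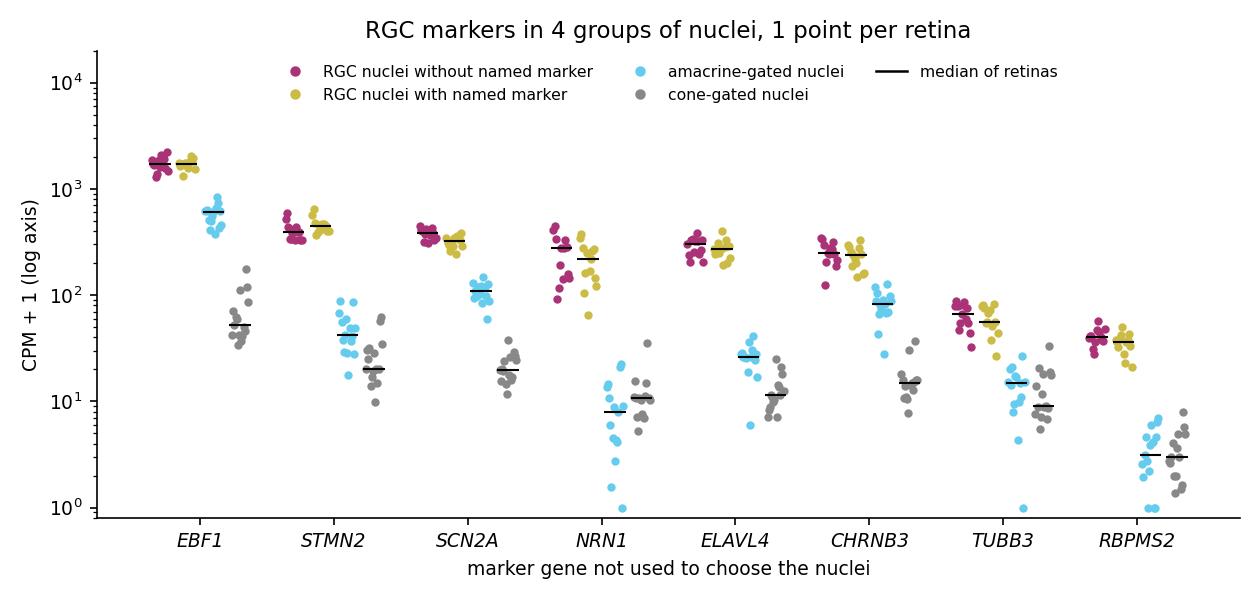
CPM plus 1 (log axis) of 8 RGC markers that were not used to choose nuclei, with 1 point per retina and the median of retinas as a line, in RGC nuclei without and with a named marker, amacrine-gated and cone-gated nuclei. The points of the RGC groups overlap for all 8 genes and lie above all cone-gated points, except for TUBB3, whose highest cone-gated point (32.2) is above the lowest points of the RGC groups (31.6 and 26.0).

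Free RNA was weighed by the share of nuclei with a UMI. Thinned to 2000 UMIs per nucleus, 89.5% of the nuclei held EBF1, 34.8% NRN1 and 51.2% STMN2, as means of 13 retinas. Cone-gated nuclei, which should lack them, held them in 6.24%, 1.98% and 4.08%. Before thinning the shares were 96.0%, 71.5% and 85.6% against 11.2%, 4.60% and 10.3%, at median depths of 5616 and 3601.5 UMIs. Over the 25 listed markers, of which 23 had counts, the summed level was 4511 to 6527 CPM in the RGC nuclei without a named marker and 4538 to 6689 in those with one. It was 746 to 1860 CPM in cone-gated and 1313 to 2238 in amacrine-gated nuclei.

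Some marker lists of other cell types had low sums, but the bipolar and astrocyte lists did not. The endothelial and pericyte list had a higher median than in cone-gated and amacrine-gated nuclei (124 against 44.9 and 54.1 CPM). The summed cone and rod markers reached 28.0 to 112 CPM in these nuclei, against 2448 to 3668 in cone-gated nuclei. Within the RGC nuclei this sum was 28.0 to 62.7 CPM in batch A and 64.1 to 112 in batch B. Amacrine markers summed to 26.8 to 127 CPM, against 710 to 2446 in amacrine-gated nuclei, and PTF1A was at 0. GAD1 and SLC6A9, which chose the amacrine-gated nuclei, are in this list, so part of the reference sum was fixed in advance. Müller glia markers summed to 25.9 to 127 CPM, microglia markers to 0 to 21.2, and myelin and oligodendrocyte markers to 1.40 to 13.2 with MBP, MAG, OLIG1, OLIG2 and SOX10 at 0. Horizontal cell markers summed to 106 to 310 CPM, with LHX1 at 0 and ONECUT1 in 24.9% of the nuclei. Endothelial and pericyte markers summed to 64.1 to 162 CPM, against 32.5 to 64.6 in cone-gated and 28.3 to 101 in amacrine-gated nuclei. KCNJ8 was at 0, while PECAM1, FLT1 and EGFL7 had a UMI in 16.0%, 20.2% and 24.3% of the nuclei. Bipolar markers summed to 1142 to 1845 CPM, against 988 to 1669 in RGCs with a named marker, 170 to 908 in cone-gated and 679 to 2505 in amacrine-gated nuclei. Most of it came from CA10, with 12160 of the 14184 UMIs of the list, 1104 CPM over all the nuclei and a UMI in 95.9% of them, while GRIK1 was at 0. Astrocyte markers summed to 31.2 to 310 CPM, mostly from SPARCL1 at 188 CPM. Their median was 181 CPM, against 56.1 in cone-gated and 177 in amacrine-gated nuclei, whose sums ran from 26.8 to 180 and from 48.9 to 538 CPM. Levels of these lists in gated bipolar, horizontal or glial nuclei were not measured. The part of these levels in the comparisons of stages was not tested.

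The question of how these nuclei differ from RGCs with a named marker was addressed with subtype genes outside the rule, in the 12 retinas with at least 10 nuclei of both groups. The nuclei with a named marker were deeper, with a median of 7130.5 UMIs, and the rule itself separates the groups, so the following levels are a description. IRX3, a homeobox gene, had a ratio of the means without and with a named marker of 3.48 (14.2 and 4.08 CPM) and BCL11B, a zinc finger factor of projection neurons, a ratio of 2.18 (38.8 and 17.8 CPM), both higher without in 12 of 12. EBF3 had a ratio of 1.76, SCN1A 1.77, PTPRG 1.50 and MYT1L 1.19, each also higher without in 12 of 12 retinas. Of the listed T-box genes of RGC types, TBR1 and EOMES had ratios of 1.78 (higher without in 8 of 12) and 2.25 (10 of 12) at 19.4 and 7.69 CPM. TBX20 had a ratio of 1.02 (5.41 and 5.29 CPM), higher without in 6 and lower in 3 of 12.

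Lower levels without a named marker were found for the following genes. BNC2, a zinc finger gene, averaged 15.7 CPM without and 112 CPM with one, a ratio of 0.14, and was lower without in 11 of 12 retinas. The ratio was 0.65 for ISL2 (lower in 11 of 12) and 0.78 for ISL1 (12 of 12), both transcription factor genes of RGC subtypes. CDH6, a cadherin of direction-selective circuits, had a ratio of 0.68 and was lower in 11 of 12. OPN4, the melanopsin gene of intrinsically photosensitive RGCs, stood at 0.20 CPM in these nuclei and 0.63 CPM in those with a named marker, on too few counts to give a direction. LMO2 and MMP17 were at 0 in both groups.

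The RGC nuclei without a named marker were not uniform. After thinning to 2000 UMIs, 1855 nuclei of 13 retinas were left for measuring how unevenly genes were spread, as the variance over the mean (1 for counting error alone in evenly expressed genes). The ratio was not adjusted for a gene's mean count, and only genes above a minimum mean were ranked. By this ratio SGCZ, which encodes zeta-sarcoglycan, ranked first among symbol-bearing genes, with a mean of 8.98 over retinas. It was absent from 56.5% of the nuclei and reached 5 or more UMIs in 25.7%. CSMD1 followed with 8.07, DPP10, a potassium channel auxiliary subunit, with 6.96, CNTNAP2, a neurexin-family adhesion protein, with 6.32, LRP1B with 5.87 and the presynaptic adhesion gene NRXN3 with 5.79. ROBO2, a receptor for Slit guidance cues, had a ratio of 5.63 but was nearly universal, with 0.803% of nuclei at 0 and 90.1% at 5 or more UMIs. Its mean was 16.9 UMIs per nucleus, against 3.30 for SGCZ. The other 3 of the 10 most uneven were the potassium channel gene KCNH7, GALNTL6, a glycosyltransferase family gene, and the glypican gene GPC6, at 5.23, 4.82 and 4.70.

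**Figure D2:**
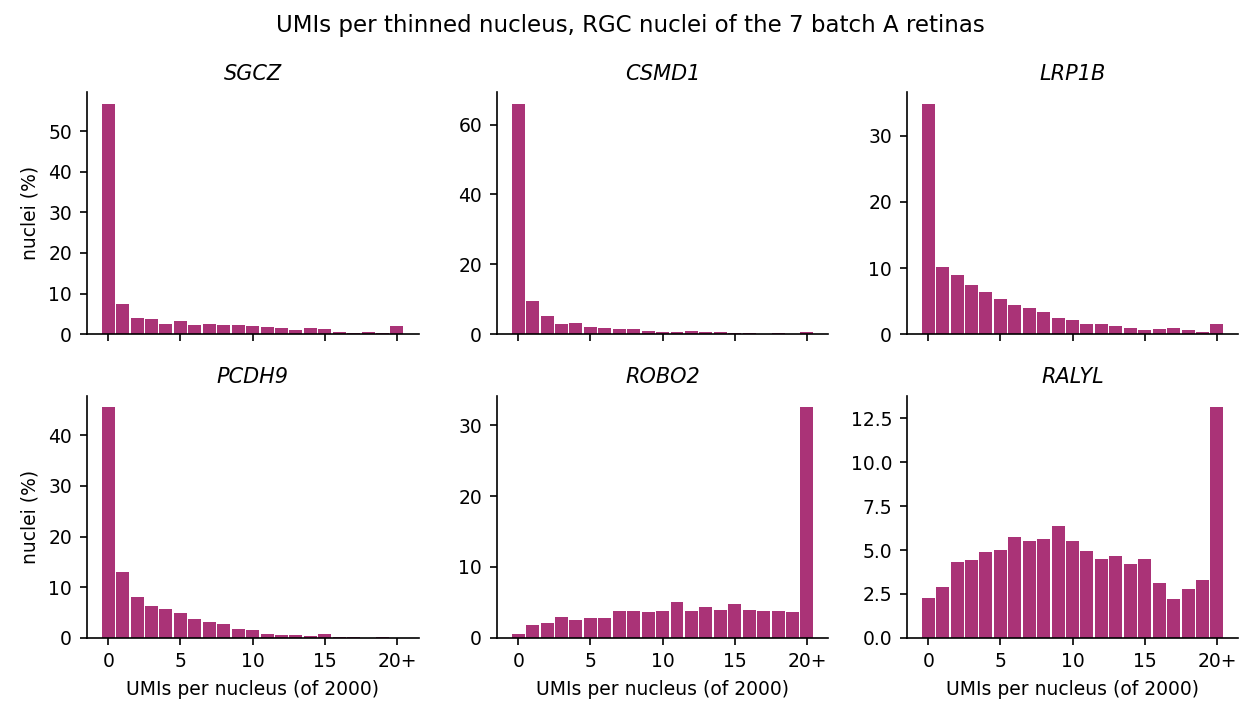
Share of nuclei (%) by number of UMIs per nucleus after thinning to 2000 UMIs, in RGC nuclei without a named marker of the 7 batch A retinas, for 6 unevenly spread genes. SGCZ, CSMD1, LRP1B and PCDH9 have their highest bar at 0, while ROBO2 and RALYL have theirs at 20 or more UMIs.

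Several of these genes went together or apart in the same nuclei. The pairs were chosen after their values were seen, out of 1770 pairs of 60 genes in the 7 batch A retinas (186 to 305 nuclei each), and the points of a correlation share a library and a fixed depth. Pearson's r across nuclei averaged over 0.3 for 14 pairs and under −0.3 for 7. SGCZ and GRM7, a metabotropic glutamate receptor gene, had a mean r of 0.61, from 0.57 to 0.66 over the 7 retinas. PCDH9, a protocadherin gene, and FRMD5 had a mean r of 0.45, and CSMD3 and ZNF385D 0.38. PCDH9 went against KCNH7 with a mean r of −0.42 and against SGCZ with −0.38. SGCZ and PTPRG, a receptor tyrosine phosphatase gene, had −0.37, and LRP1B and CSMD3 −0.35.

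The same nuclei can be described by counts, which restate the choice of these pairs and are no further support for them. GRM7 was present in 98.4% ± 1.68 (SD, n = 7 retinas) of the 427 nuclei with 5 or more UMIs of SGCZ and in 46.3% ± 4.57 of the 945 without any. PTPRG was present in 15.1% ± 3.44 and 58.6% ± 6.06, and PCDH9 in 28.6% ± 8.02 and 66.1% ± 4.96, of the same nuclei. The SGCZ-high nuclei thus held GRM7 almost always and PTPRG or PCDH9 in a smaller share than the nuclei without SGCZ. FRMD5 was present in 64.9% ± 7.63 of the 353 PCDH9-high nuclei and in 12.4% ± 3.08 of the 759 without PCDH9. KCNH7 was present in 55.0% ± 8.88 and 87.6% ± 5.54 of them. Among the 295 CSMD3-high nuclei 88.8% ± 2.80 held ZNF385D, against 40.0% ± 5.18 of the 743 without CSMD3.

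Further pairs involved genes named as RGC subtype or channel genes. TFAP2D, a transcription factor gene of RGC subtypes, was present in 27.3% ± 5.2 of the 337 GPC6-high nuclei and in 4.68% ± 1.95 of the 798 without GPC6. SORCS3, a sorting receptor gene, was present in 57.1% ± 7.94 of the 220 CSMD1-high nuclei and in 19.1% ± 3.71 of the 1099 without CSMD1. KCNIP4, a potassium channel-interacting protein gene, was present in 84.8% ± 4.81 of the 536 LRP1B-high nuclei and in 49.5% ± 6.29 of the 580 at 0. CSMD3 showed the opposite, with 31.9% ± 7.53 and 72.0% ± 3.83.

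These groups of nuclei were found at every stage. The share with 5 or more UMIs of SGCZ was 26.8%, 23.3%, 24.2%, 24.1% and 35.7% in infancy 1 to 5, 24.7%, 22.6% and 7.14% in mature 1 to 3, and 22.5%, 39.2%, 31.6%, 34.6% and 27.8% in senile 1 to 5. Mature 3, with 28 nuclei, was the lowest, and the stages otherwise overlapped. The PCDH9-high share had medians of 20.2%, 22.6% and 19.3% in infant, mature and senile retinas, with the lowest value in infancy 4 (10.3%) and the highest in mature 3 (50%), the retina with the lowest SGCZ-high share. No test of these shares by stage was made. As a level summed over nuclei, SGCZ had a senile against infant log2 fold change of −0.09 (SE 0.21, edgeR adjusted p = 0.969) and a mature against infant one of −0.64 (SE 0.25, adjusted p = 0.414).

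The share of RGC nuclei without a named marker was compared between stages. In infancy 1 to 5 they were 2.79%, 3.44%, 2.72%, 0.330% and 0.199% of all nuclei. In mature 1 to 5 they were 2.95%, 2.44%, 0.311%, 0.0949% and 0.118%, and in senile 1 to 5 they were 3.02%, 2.66%, 1.09%, 0.377% and 0.377%. In each stage the batch A retinas were the high ones, at 2.44% to 3.44% against 0.0949% to 1.09% in batch B, so the stages overlapped and the batches did not.

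The means were 1.90% ± 1.52 in infancy, 1.18% ± 1.40 in the mature and 1.51% ± 1.26 in the senile stage (SD, n = 5 each). No difference between stages passed the test over this spread, which includes that between batches. The exact two-sided permutation p was 0.754 for senile against infancy, 0.341 for mature against infancy and 0.587 for senile against mature, with adjusted p of 0.682 or more over 6 comparisons. Permuted within batches, p was 0.59, 0.36 and 0.133 in the same order (exact), with adjusted p of 0.38 or more. The senile share was above the mature one for each of the 5 replicate numbers, among all nuclei and among gated RGCs, with an exact sign-flip p of 0.0625 for both, the smallest that 5 pairs allow (adjusted p = 0.188). The replicate numbers were not taken to pair the retinas. Within batch A, the infant mean was 2.98% (n = 3), the mature 2.70% and the senile 2.84% (n = 2 each), where the smallest exact p is 0.1 against infancy and 0.333 between the mature and senile stages. The ARR3 limit took 8.55% to 17.6% of otherwise eligible nuclei in batch A and 36.6% to 77.8% in batch B, beside 14.8% to 40.1% and 32.4% to 55.3% of all nuclei with an ARR3 UMI. Without that limit the shares in batch B were 0.232% to 2.36%, still below the 2.82% to 3.92% of batch A.

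Among gated RGCs the share without a named marker was 62.9%, 58.3%, 64.0%, 58.0% and 60.9% in infancy 1 to 5, 60.5%, 61.0%, 58.3%, 47.4% and 38.5% in mature 1 to 5, and 65.6%, 70.7%, 60.4%, 52.9% and 51.4% in senile 1 to 5. The 2 lowest shares, in mature 4 and 5, rested on 19 and 13 gated nuclei, with 95% Wilson intervals of 27.3% to 68.3% and 17.7% to 64.5%. These intervals cover counting error only. The means were 60.8% ± 2.69, 53.1% ± 9.88 and 60.2% ± 8.21, and the exact permutation p was 0.881 for senile against infancy, 0.151 for mature against infancy and 0.278 for senile against mature. The limits are fixed UMI counts, and thinning also left out nuclei with fewer than 2000 UMIs. The part of depth in this share was not tested. In nuclei thinned to 2000 UMIs the mean share was 92.2% in infancy, 91.9% in 4 mature retinas and 85.2% in the senile stage (exact permutation p = 0.0476 for senile against infancy, adjusted p = 0.286). These means weigh retinas alike, though after thinning infancy 5 had only 1 gated nucleus, mature 4 had 5, senile 4 had 8 and infancy 4 had 9.

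**Figure D3:**
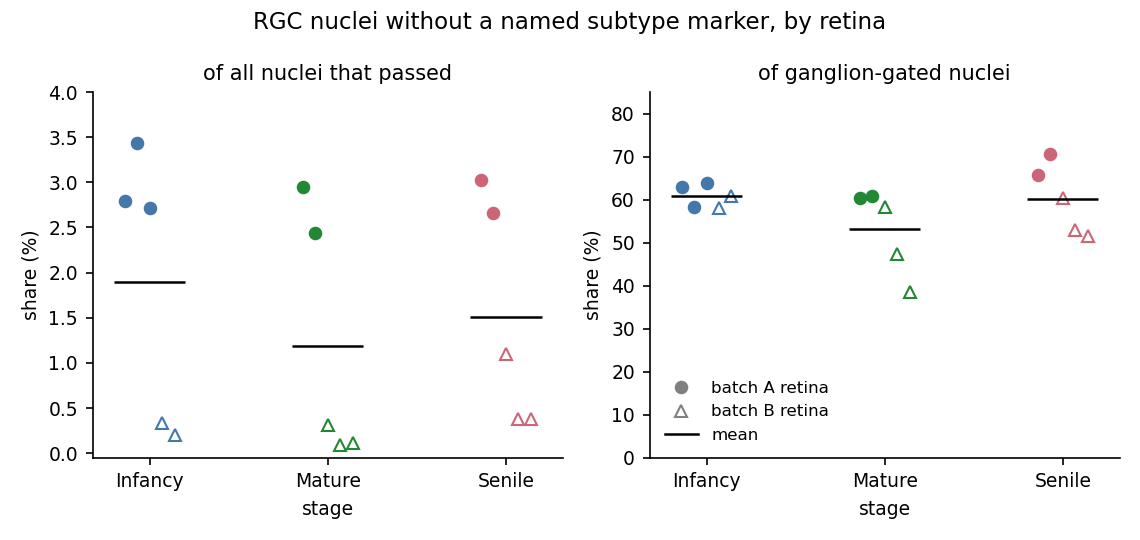
Share (%) of RGC nuclei without a named marker in each of 15 retinas by stage, among all nuclei that passed (left) and among gated RGC nuclei (right), with filled circles for batch A, open triangles for batch B and lines for stage means. On the left the batches separate within each stage, and on the right the 3 stages overlap.

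Gene expression was compared on the counts summed over these nuclei in each of 13 retinas (140385 to 1730726 UMIs each), with edgeR's quasi-likelihood test across 9202 features and the batch as a covariate. The question was which genes change with age in these RGCs. In summed counts, fewer RNA molecules per nucleus and fewer nuclei that hold the RNA cannot be told apart. Between senile and infant retinas 82 features were called at an adjusted p of 0.05, 68 higher and 14 lower (0.891% of those tested). The higher calls were 0.739% and the lower calls 0.152% of the features, and 1.62% of features had no overlap between senile and infant retinas. Between mature and infant retinas, with the same infant samples, 36 were higher (0.391%) and 4 lower (0.0435%), together 0.435%, and 4.52% of features had no overlap. With 3 mature retinas no overlap arises more readily than with 5 against 5, so the 1.62% and 4.52% cannot be compared. Between senile and mature retinas edgeR called 0, with 566 features at an unadjusted p under 0.05 and 3 called by DESeq2.

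Named genes made up few of the calls. Only 10 of the 82 senile calls carried a plain gene symbol, 0.151% of 6632 such features, against 2.80% of the 2570 numbered copies, antisense, unnamed and repeat-derived features. With batch A retinas alone, an alternative chosen after the data were seen, 202 and 181 features were called in the senile and mature comparisons. Genes named below by size of change in a stage comparison had to show no overlap between the compared stages. Their separation restates that choice.

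HA1A showed the largest rise with age among the named genes. Its TMM-scaled level was 1.73, 0.609, 1.50, 0 and 0 CPM in infancy 1 to 5, 18.2, 14.7 and 9.59 in mature 1 to 3, and 27.8, 25.2, 27.2, 34.9 and 27.0 in senile 1 to 5. All senile retinas were above all mature ones, and these above all infant ones. The log2 fold change was 4.56 for senile against infancy (SE 0.46, edgeR adjusted p = 8.49e-06) and 3.67 for mature against infancy (SE 0.49, adjusted p = 0.000954). TMM scaling corrects the totals for differences in composition, is used for all levels of these nuclei by retina in the gene comparisons, and was not applied to levels of other nuclei, which are plain CPM. The infant level rests on 5 UMIs in all. HA1A rose also in all other nuclei, by 3.48 (SE 0.42, adjusted p = 0.000109), and in RGCs with a named marker, by 2.77 (SE 0.49, adjusted p = 0.00693).

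CDKN2B, which encodes the cyclin-dependent kinase inhibitor p15, behaved alike. Of 271 tested genes of the study's glaucoma list, only CDKN2B was called higher in senile retinas, beside 0.739% of all features. It stood at 2.59, 4.26, 3.74, 3.12 and 0 CPM in infancy 1 to 5, at 15.6, 24.2 and 3.20 in mature 1 to 3, and at 29.4, 29.6, 25, 21 and 27.0 in senile 1 to 5. Infant and senile retinas were separate, with mature 3 (a single UMI) at the infant level. The log2 fold change was 3.17 for senile (SE 0.41, edgeR adjusted p = 0.000123) and 2.29 for mature retinas against infancy (SE 0.43, adjusted p = 0.0134). In all other nuclei CDKN2B rose by 3.52 (SE 0.30, adjusted p = 3.34e-06), and the difference of the changes, 0.12 (SE 0.63), did not pass the test.

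The mean level of CDKN2B in senile retinas was higher in RGCs than in amacrine-gated or cone-gated nuclei. It was 26.4 CPM ± 3.58 without and 30.0 ± 6.44 with a named marker, against 1.49 ± 0.768 in cone-gated and 3.68 ± 2.86 in amacrine-gated nuclei (SD, n = 5 each). HA1A had senile means of 28.4 ± 3.77, 33.5 ± 12.5, 2.17 ± 1.34 and 6.53 ± 2.05 CPM in the same order. Both transcripts thus had higher means in the RGC groups than in these 2 other types in senile retinas. The differences between types were not tested.

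PDE8B, a cAMP phosphodiesterase gene, was the remaining named gene that rose. It stood at 19.0, 11, 19.4, 9.37 and 4.53 CPM in infancy 1 to 5, at 37.6, 42.6 and 44.7 in mature 1 to 3, and at 53.9, 29.6, 34.0, 69.9 and 21.6 in senile 1 to 5. Infant retinas were below all others. The log2 fold change was 1.52 for senile against infancy (SE 0.32, edgeR adjusted p = 0.0225), and 1.49 for mature against infancy, which did not pass the test (SE 0.33, adjusted p = 0.0519). The call was lost in 3 of 23 settings, among them without infancy 2 or senile 1 (edgeR adjusted p = 0.119 and 0.336). Cone-gated nuclei held far more PDE8B, with 364 ± 143 CPM in the senile stage, and its part in these values was not tested.

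Of the 7 genes with a plain symbol called lower in senile retinas, 4 had no overlap between infant and senile retinas and at least 10 CPM, and CRYBB2, TBCCD1 and SORBS2 are described further on. TUBB2A, a beta-tubulin gene, stood at 82.1, 109, 101, 109 and 77.0 CPM in infancy 1 to 5, at 64.2, 68.2 and 57.5 in mature 1 to 3, and at 47.4, 63.7, 38.6, 48.9 and 56.6 in senile 1 to 5. Infant retinas were above all the others, with a log2 fold change of −0.89 for senile against infancy (SE 0.18, edgeR adjusted p = 0.0113). NDUFA10, a subunit of respiratory complex I, stood at 26.8, 33.5, 33.7, 31.2 and 36.2 CPM in infancy, 27.3, 30.8 and 25.6 in the mature stage, and 11.4, 17.8, 15.9, 21 and 13.5 in senile retinas. Here infant and mature retinas overlapped and the senile ones were lower, with −1.11 (SE 0.26, adjusted p = 0.0432).

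SLC39A13, a zinc transporter gene, stood at 53.6, 52.4, 84.5, 43.7 and 45.3 CPM in infancy and 30.2, 29.6, 22.7, 34.9 and 27.0 in senile retinas, a log2 fold change of −0.97 (SE 0.22, edgeR adjusted p = 0.0394). LMAN1, a cargo receptor between endoplasmic reticulum and Golgi, stood at 65.7, 60.9, 75.6, 37.5 and 49.8 CPM in infancy and 34.3, 34.1, 34.0, 21 and 27.0 in senile retinas, −0.84 (SE 0.20, adjusted p = 0.0472). In both the infant and senile retinas did not overlap, and mature retinas lay between 28.8 and 49.9 CPM. All 4 calls were lost when the ARR3 limit was dropped. When nuclei with ARR3 counts were kept, an alternative chosen after the data were seen, the log2 fold changes were −0.61 for TUBB2A, −0.47 for NDUFA10, −0.71 for SLC39A13 and −0.53 for LMAN1, with adjusted p from 0.271 to 0.99. The 4 calls also depended on single retinas. TUBB2A lost its call in 6 of 24 settings, among them without infancy 2 (adjusted p = 0.058) or senile 1 (0.134). SLC39A13 lost it without infancy 1, 2, 3 or 5, mature 1, or senile 1 or 2 (up to 0.277), NDUFA10 without any infant retina, mature 1 or 2, or senile 1, 2 or 5 (up to 0.38), and LMAN1 without any retina but infancy 4 and senile 3 (up to 0.351).

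Between mature and infant retinas 2 further named genes rose. KCNIP1, which encodes a regulator of Kv4 potassium channels, stood at 254, 282, 207, 222 and 240 CPM in infancy 1 to 5, 361, 536 and 387 in mature 1 to 3, and 353, 249, 279, 238 and 289 in senile 1 to 5. The mature retinas were above all others. The log2 fold change was 0.82 for mature (SE 0.16, edgeR adjusted p = 0.0185) and 0.27 for senile retinas against infancy (SE 0.15, adjusted p = 0.738). VAT1L stood at 18.2 to 27.2 CPM in infancy, at 30.5, 54.3 and 73.5 in mature 1 to 3 and at 31.0 to 43.1 in senile retinas, with 1.18 for mature against infancy (SE 0.24, adjusted p = 0.0265). Both calls were lost without mature 2 (edgeR adjusted p = 0.222 for KCNIP1 and 0.263 for VAT1L). The call of KCNIP1 was also lost without infancy 1 (0.0613) or infancy 3 (0.0772), and that of VAT1L without mature 3 or infancy 1, 2 or 3. Both were lost as well with the ARR3 limit dropped, at 0.85 for KCNIP1 (adjusted p = 0.0689) and 0.76 for VAT1L (0.309), and without the batch as a covariate (0.0624 and 0.112). In all, the call of KCNIP1 was lost in 6 of 24 settings and that of VAT1L in 8 of 23.

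**Figure D4:**
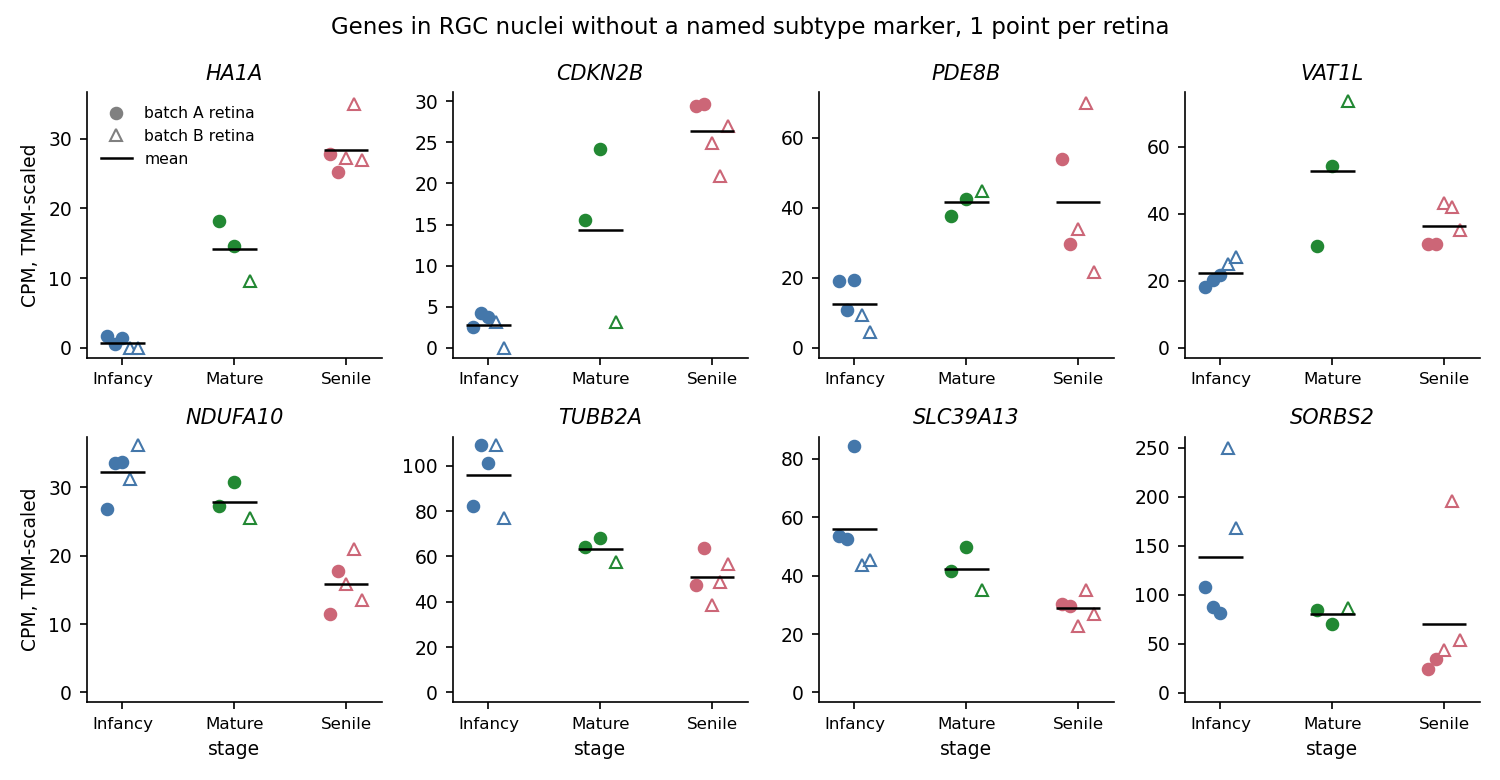
TMM-scaled CPM of 8 genes in RGC nuclei without a named marker, with 1 point per retina by stage, filled circles for batch A, open triangles for batch B and lines for stage means. Infant and senile points do not overlap for HA1A, CDKN2B, PDE8B, VAT1L, NDUFA10, TUBB2A and SLC39A13, and they overlap for SORBS2. Except for VAT1L and SORBS2, no overlap of these points was a condition for naming the gene.

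CRYBB2, a lens beta-crystallin gene in the study's glaucoma list, was called lower in both comparisons, with log2 fold changes of −7.53 (SE 0.76, edgeR adjusted p = 8.93e-06) and −7.48 (SE 1.23, adjusted p = 0.00422). Its level was 6.92, 7.92, 4.49, 6357 and 1385 CPM in infancy 1 to 5, 1.95, 1.47 and 0 in mature 1 to 3, and 0, 0, 2.27, 76.8 and 13.5 in senile 1 to 5. The high values were those of infancy 4 and 5. The mature call was lost in 6 of 22 settings, with log2 fold changes of −1.83 without mature 3 (adjusted p = 0.834), −3.46 with DESeq2 (0.551), −2.05 with replicates 1 to 3 against 4 and 5 as the covariate (0.501), −1.34 with the ARR3 limit dropped (0.87), −2.16 with the replicate block (0.0851) and −9.82 without a covariate (0.381). The senile call was lost without a covariate (0.158) and with the ARR3 limit dropped (0.0754). In all other nuclei CRYBB2 stood at 9442 and 2375 CPM in infancy 4 and 5 and at 7969 CPM in mature 4, against 3.43 to 128 in the other 12 retinas. The lens genes CRYAA, CRYBB1, CRYBA4 and MIP, looked up after these values were seen, were high in the same 3 libraries. TBCCD1, named after its values were seen, followed them as well, with 2605 and 344 CPM in infancy 4 and 5 and at most 16.0 elsewhere in these RGC nuclei (log2 fold change −4.72, SE 0.93, adjusted p = 0.0113). The level of lens transcripts therefore differed between libraries, and its part in other results was not tested.

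Gene groups tied to RGC identity and function were counted against the 0.891% of all features called between senile and infant retinas (0.151% of those with a plain symbol), a share at which lists of this size would hold few or no calls, so a count of 0 is no result about them. edgeR called 0 of 19 tested RGC markers, 0 of 37 RGC transcription factor genes and 0 of 21 subtype genes, with median log2 fold changes of −0.11, −0.00 and 0.04 beside −0.03 over all tested features. The log2 fold change was 0.13 for EBF1 (SE 0.13, adjusted p = 0.896), −0.27 for STMN2 (SE 0.13, adjusted p = 0.669) and −0.06 for NRN1 (SE 0.24, adjusted p = 1.00).

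Receptors and channels were counted in the same way. edgeR called 0 of 39 axon guidance genes (median −0.04), 0 of 39 axon growth and injury genes (−0.09), 0 of 24 neurotrophic genes (−0.14), 0 of 20 glutamate receptor genes (0.05) and 0 of 49 adhesion genes (0.00) in that comparison. Among 26 GABA, glycine and acetylcholine receptor and chloride transporter genes none was called, 6 lay above 0 and the median was −0.27. Among 35 sodium and potassium channel genes none was called (median −0.09), and KCNIP1 was the only gene called in the mature comparison.

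Respiration and stress genes held the remaining list calls. Of 25 nuclear-encoded respiratory subunits tested, NDUFA10 alone was called (lower), 5 lay above 0 and the median was −0.26. Of 4 tested immediate early and stress genes 2 chaperone features fell, HSPA8li1 by 0.64 on the log2 scale (SE 0.15, edgeR adjusted p = 0.0477) and HSP90AA1li9 by 0.78 (SE 0.18, adjusted p = 0.0394). HSP90AA1li9 stood at 175, 262, 243, 234 and 145 CPM in infancy 1 to 5, 154, 178 and 208 in mature 1 to 3, and 133, 120, 136, 76.8 and 135 in senile 1 to 5, so infant and senile retinas did not overlap. Both are numbered copies, between which reads of near-identical sequences may be split, and both calls were lost with the ARR3 limit dropped (adjusted p = 1 and 0.999). The call of HSPA8li1 was lost in 21 of 24 settings, leaving out any single retina among them (0.0532 to 0.185), and that of HSP90AA1li9 in 13 of 24, among them without infancy 2, 3 or 4, mature 1 or 2, or senile 1, 2 or 4 (0.0545 to 0.158). Of 271 tested genes of the study's glaucoma list, CDKN2B was called higher and CRYBB2 lower, with a median of −0.01. The share called was 0.891% over all features and 0.151% of those with a plain symbol. The list was not tested against either share.

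The bulk of the calls were repeat-derived or numbered features. The families below were picked out after their values were seen, so their counts are a description beside the 0.739% of all features called higher. Of the 22 tested features named after the zinc finger gene ZFP39, 9 rose in senile against infant retinas, with a median log2 fold change of 1.54. Of 9 features named ZFP809, 8 rose (median 2.50), and of 15 named after the vomeronasal receptor gene VMN2R116, 8 rose (median 2.22). Of 7 tested features named for a retroviral envelope gene (ENV), 5 rose (median 2.07), as did 3 of 6 named MIA3 (median 1.69). Features named for LINE-1 retrotransposons had smaller medians, with 4 of 33 L1RE1 features (median 0.17) and 3 of 61 LORF2 features (median 0.16) rising, and LIN1 with 1 of 7 rising had a median of −0.36. Of 11 features named for a retroviral POL gene 1 rose (median 0.21). None of these families had a call below 0. The features of a family may be near-identical copies among which reads are split, and the annotation names may not reflect the gene of that name.

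Summed counts of the first 3 families, given as a description, were higher in later stages, while the LINE-1 features averaged 4712 CPM in infancy, 4569 in the mature and 5730 in the senile stage. Features named ZFP39 summed to 467 to 636 CPM in infancy, 651 to 1017 in the mature stage and 1140 to 1464 in senile retinas (means 539, 882 and 1289). The 3 stages did not overlap. Features named ZFP809 summed to 95.6 ± 20.8, 232 ± 48.9 and 305 ± 35.4 CPM, and features named VMN2R116 to 203 ± 41.9, 450 ± 122 and 684 ± 69.7 CPM (SD, n = 5, 3 and 5). The same order was seen in all other nuclei, where ZFP39 features averaged 427, 688 and 966 CPM, ZFP809 features 60.8, 153 and 225 CPM, and VMN2R116 features 185, 363 and 611 CPM.

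**Figure D5:**
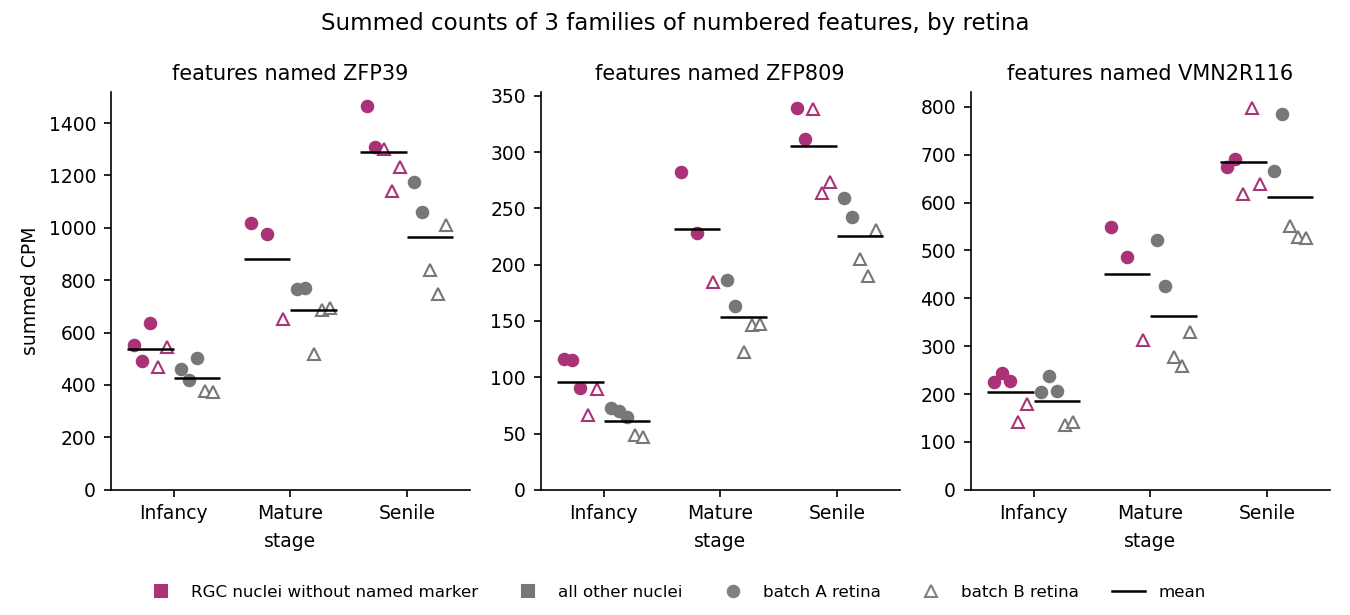
Summed CPM of the features named ZFP39, ZFP809 and VMN2R116 in RGC nuclei without a named marker and in all other nuclei, with 1 point per retina by stage, filled circles for batch A, open triangles for batch B and lines for means. In each panel the senile points of the RGC nuclei lie above their infant points, and the other nuclei show the same order of means.

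Changes with age were set against those in all other nuclei of the same retinas. A difference from them is not one from RGCs with a named marker, where HMGCS1 had a log2 fold change of 0.98, TAFA2 of −1.0, FHOD3 of −0.91 and ARHGAP6 of 1.12, none of them called (edgeR adjusted p = 0.31, 0.607, 0.391 and 0.463). Of the 68 features that rose in the RGC nuclei, 66 were also called higher in all other nuclei. In those nuclei 408 of 28544 tested features were called higher and 70 lower. Of the 14 that fell, 2 were called lower there and 11 had a log2 fold change below 0. A direct test of the difference of the senile against infant changes, across 25383 features, called 67 (0.264%), of which 22 changed upward (0.0867%) and 45 downward (0.177%) relative to the other nuclei. Of the 82 features called in the RGC nuclei, 5 were among them. The make-up of the other nuclei by cell type was not held fixed between retinas, and its part was not tested.

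Of the named genes that moved upward relative to other nuclei, HMGCS1, an enzyme gene of cholesterol synthesis, held its call under all alternatives run (17 of 17). It stood at 24.2, 39.6, 38.9, 40.6 and 81.5 CPM in infancy 1 to 5, 70.1, 45.5 and 44.7 in mature 1 to 3, and 85.7, 85.9, 56.7, 62.9 and 75.5 in senile 1 to 5. Infancy 5 (18 UMIs) overlapped the senile retinas. The other nuclei averaged 45.9 CPM in infancy and 44.6 in senile retinas, and the changes differed by 0.97 (SE 0.19, edgeR adjusted p = 0.000985). Within the RGC nuclei alone the change was 0.95 (SE 0.25) and did not pass the test (adjusted p = 0.108).

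Of those that moved downward, SORBS2, a cytoskeletal adaptor gene, had the smallest p. It stood at 107, 87.1, 81.6, 250 and 168 CPM in infancy 1 to 5, 84.4, 69.7 and 86.3 in mature 1 to 3, and 24.5, 34.1, 43.1, 196 and 53.9 in senile 1 to 5. Senile 4 (28 UMIs) was at the infant level and the other senile retinas were below all infant ones. In the RGC nuclei it fell by 1.52 on the log2 scale (SE 0.30, edgeR adjusted p = 0.0115), in other nuclei the log2 fold change was 0.24 (SE 0.22, adjusted p = 0.753), and the difference was −1.74 (SE 0.20, adjusted p = 2.2e-14). The other nuclei held 523 ± 137 CPM in infancy and 658 ± 133 in senile retinas, several times more than the RGC nuclei.

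TAFA2, a secreted-peptide gene, and FHOD3, a formin gene of actin assembly, also moved downward relative to other nuclei, but neither was called in the RGC nuclei themselves (−0.64 and −1.11, edgeR adjusted p = 0.756 and 0.11). TAFA2 averaged 40.3 and 22.9 CPM in infant and senile RGC nuclei and 388 and 616 CPM in other nuclei, a difference of −1.31 (SE 0.24, edgeR adjusted p = 0.0002). FHOD3 averaged 28.8 and 12.3 CPM against 157 and 192 CPM, a difference of −1.57 (SE 0.30, adjusted p = 0.000302). Its call was lost in 2 of 17 settings, 1 of them without senile 1. For NDUFA10 the difference was −1.27 (SE 0.29, adjusted p = 0.0101), and its call was lost in 4 of 17 settings, among them batch A alone (0.0572), without infancy 2 (0.0507) and without senile 1 (0.104). CRB1, KIFC3, HTATIP2, SST, SEMA3D, DUSP15, IQGAP2 and TMEM43 had differences from −2.60 to −1.20. None of these was called between senile and infant retinas in the RGC nuclei themselves, where CRB1 was not tested. For HTATIP2 and DUSP15 it was the other nuclei that rose, by 2.18 and 1.04 on the log2 scale (edgeR adjusted p = 0.00031 and 0.029), beside 0.39 and −0.47 in the RGC nuclei. Of 17 settings, the call was lost in 12 for SST, 11 for DUSP15, 9 for IQGAP2, 6 for TMEM43, 4 for SEMA3D, 3 for CRB1 and KIFC3 each and 2 for HTATIP2. In batch A alone CRB1, HTATIP2, SST and DUSP15 were not called (edgeR adjusted p = 0.131, 0.103, 0.632 and 0.189), and without senile 1 IQGAP2 differed by −0.84 (adjusted p = 0.583). CRB1, a polarity gene of photoreceptors and Müller glia, had only 59 UMIs in infant and 8 in senile RGC nuclei, at 140 and 175 CPM in other nuclei. SST, the somatostatin gene, averaged 19.2 and 8.36 CPM in infant and senile RGC nuclei and 6.48 and 8.99 CPM elsewhere.

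The other 11 named genes that moved upward relative to other nuclei follow. TRPC4 and TRPC7, cation channel genes, differed by 2.18 (SE 0.54, edgeR adjusted p = 0.0279) and 0.77 (SE 0.19, adjusted p = 0.0373). UNC5D, a netrin receptor gene, differed by 0.61 (SE 0.16, adjusted p = 0.0417), PCDH17, a protocadherin gene, by 0.73 (SE 0.17, adjusted p = 0.0129) and GPC6 by 0.57 (SE 0.14, adjusted p = 0.0279). None of these 5 was called between senile and infant retinas in the RGC nuclei themselves, and TRPC4 (10 infant UMIs) was not tested there. Of 17 settings, the call was lost in 8 for TRPC4, 12 for TRPC7, 10 for UNC5D, 6 for PCDH17 and 7 for GPC6. In batch A alone none of the 5 was called, with edgeR adjusted p of 0.538, 0.0577, 0.505, 0.211 and 0.577 in that order. TMEM196 differed by 0.74 (SE 0.15, adjusted p = 0.00127), ST6GALNAC5, a sialyltransferase gene, by 0.67, and NYAP2, RAPGEF5, ARHGAP6 and COL24A1 by 0.66 to 1.42. Their calls were lost in 4, 5, 9, 12, 14 and 11 of 17 settings.

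No change with age was shown to differ between RGCs without and with a named marker. edgeR called 0 of 10786 features in that test, with 463 at an unadjusted p under 0.05, 19 called without a filter on low counts and 4 in batch A alone. For HA1A the difference of the changes was 1.76 (SE 0.74), for CDKN2B 0.04 (SE 0.81), for PDE8B 1.11 (SE 0.35) and for SORBS2 −0.07 (SE 0.36), and none passed the test (adjusted p = 1, 1, 0.784 and 1). These values leave room for differences of more than 1 log2 unit for HA1A, CDKN2B and PDE8B.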

How the data were processed

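The deposited files held UMI counts per gene and nucleus, made by the authors with Cell Ranger (version 5.0.1 or 7.0.1 per the labels, 6.1.2 or 7.0.1 per the file headers) on TS genome annotation TS_3.0, unnormalized. Strand use in counting is not given in the sources used here. Counts were summed per retina over the chosen nuclei. edgeR 4.0.16 (TMM scaling, quasi-likelihood test, Benjamini-Hochberg adjustment at 0.05, R 4.3.3) was run with stage and batch (the version in the labels) on features passing its expression filter, and compared with DESeq2 1.42.0. Shares were compared by exact two-sided permutation (scipy 1.17.1). Nuclei were thinned to 2000 UMIs where depth mattered. Doublets were scored against simulated ones, at a rate that rises by 8 per 1000 nuclei with every 1000 nuclei of a library.

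Named genes were those called at 10 CPM or more with a plain symbol and, in comparisons of stages but not in tests of differences, no overlap of the stages, at most 12 per direction by size, plus called list genes. Members, lists and tests were chosen with earlier results of these data known. On data simulated for senile against infancy (9202 features, 200 changed), 84% of 4-fold and 57% of 2-fold changes were recovered with 12 false calls. The changed features were drawn from those with a mean of 10 CPM or more, and no batch difference was simulated, so recovery in the real comparison may differ. Retinas are separate animals, and p-values measure the spread between them. Some retinas gave few of these nuclei, and the part of depth in precision was not tested. Alternatives covered tools, filters, covariates, gates, doublets, depth and each retina left out. Some genes are not reported here.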

Additional observations from a re-analysis of the deposited data

Results flagged for a closer look

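Outlying retinas were sought in 30 groups of retinas and found in 5, while chance alone gives about 1 in 20. In the RGC nuclei without a named marker, HA1A at 34.9 CPM in senile 4 stood above the other senile retinas (25.2 to 27.8 CPM) by a wide gap, on 5 UMIs. SLC39A13 at 84.5 CPM in infancy 3 stood above the other infant retinas (43.7 to 53.6 CPM). HSP90AA1li9 at 76.8 CPM in senile 4, on 11 UMIs, stood below the other senile retinas (120 to 136 CPM). CRYBB2 stood apart at 6357 CPM in infancy 4 and at 76.8 CPM in senile 4.

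The senile against infant change of 67 genes differed between these RGC nuclei and all other nuclei by the interaction test of edgeR. Outside the compared nuclei, CRYBB2 stood at 7969 CPM in the other nuclei of mature 4, whose RGC nuclei were too few for the gene comparisons, against 3.43 to 128 CPM in the 12 retinas other than infancy 4, infancy 5 and mature 4.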

How the results depend on the processing

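Of 38 results for single named genes, recomputed in 732 settings, 467 kept their call, 265 lost it with the same direction, and 0 turned direction. HA1A and CDKN2B (senile against infancy) kept it in 23 of 23 settings, with adjusted p up to 0.000968 and 0.00152, while NDUFA10 and LMAN1 kept it in 7 of 23, SLC39A13 in 9 of 23 and HSPA8li1 in 3 of 24. Batch B retinas had few of these nuclei, which limits the depth of 6 of the 13 retinas compared. The batch A and ARR3 alternatives were chosen after the data were seen. The cause of the changes below was not tested.

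Counts of called features for senile against infancy (82) became 281 without a filter on low counts, 51 without covariate, 132 with replicates 1 to 3 against 4 and 5 as covariate, 11 when libraries were thinned to the smallest total, 45 with 2 UMIs of RBPMS and SLC17A6 required, and 202 in batch A. For mature against infancy (40) they became 64 with DESeq2, 212 without filter, 18 without covariate, 117 with the replicate split, 4 when thinned and 181 in batch A. For senile against mature (0) they were 3 with DESeq2, 42 without filter and 1 in batch A. The count differing from all other nuclei (67) became 19 with the 2-UMI gate and 137 in batch A, and that differing from RGCs with a named marker (0) became 19 without filter, 6 with the 2-UMI gate and 4 in batch A.

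Leaving out 1 retina at a time gave 40 to 138 (40 without senile 1, 53 without infancy 2, 138 without senile 3), 23 to 92 (23 without infancy 2, 26 without infancy 3, 92 without senile 3), 0 to 1, 30 to 86 (30 without infancy 2 or senile 2, 37 without infancy 3) and 0 to 3 calls, in that order of comparisons.

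Differences in shares, in percentage points and none past the test, changed sign in some settings. Among all nuclei, senile minus infancy (−0.39) was 0.10 within batches, and senile minus mature (0.32) was −0.046 with the 2-UMI gate. Among gated RGCs, senile minus infancy (−0.58) was 0.97 within batches, 1.95 with the ARR3 limit dropped and 6.45 in batch A, and senile minus mature (7.11) was −6.68 after thinning. Leaving out 1 retina gave −0.81 to −0.0043, −1.16 to −0.33 and −0.057 to 0.77 among all nuclei for senile minus infancy, mature minus infancy and senile minus mature, and −3.21 to 1.62, −9.65 to −4.03 and 3.45 to 9.31 among gated RGCs.

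Replicate numbers were not taken to pair the retinas, since not every same-numbered pair had deviations correlated over 0.1: 9 of 11 did (up to 0.36, all 5 infant and senile pairs among them), and mature 3 gave −0.37 and −0.17. With the replicate number as a block in place of the batch, 114, 135 and 0 features were called in the 3 stage comparisons, and NDUFA10 (adjusted p = 0.0628), SLC39A13 (0.0548), HSPA8li1 (0.0769) and the mature call of CRYBB2 (0.0851) were lost.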
